A study of Mus musculus with 8 samples.

Results

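The 10 genes considered here encode secreted or membrane-bound antagonists of WNT signaling and were followed across the midbrain samples of a mouse study of dopaminergic development, namely *Sfrp1*, *Sfrp2*, *Sfrp4*, *Sfrp5*, *Frzb*, *Dkk1*, *Dkk2*, *Dkk3*, *Apcdd1* and *Wif1*. They were chosen by name, with earlier results of these data known. All 10 were found among the 19938 genes that the platform annotation names with a single symbol. Each of the 10 was represented by 1 probe set. The 2 dissected tissues were laser-microdissected from E12.5 *BAT-gal* embryos of the mixed strain B6D2F1, in which a minimal promoter with LEF1/TCF binding sites drives nuclear b-GAL. These were the b-GAL+/PITX3+ mesodiencephalic dopaminergic (mdDA) domain and a lateral b-GAL-/PITX3- domain at the boundary of alar and basal plate, each outlined on stained, fixed sections and collected from 5 embryos. The other groups were mdDA neurons sorted by GFP from *Pitx3* GFP/+ embryos (C57BL/6 x 129/Ola, mixed) at E13.5 and at E14.5, in which the sorted cells carry a GFP allele of *Pitx3*, and the sex of the embryos was not determined in any group. Every group had 2 arrays, which the labels call technical replicates, so the p-values below measure the spread between arrays and not between embryos. The sorted and the dissected samples differ in stage, strain and isolation together, and these cannot be told apart.

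WNT proteins bind a Frizzled receptor and the co-receptor LRP5 or LRP6, which stabilizes b-catenin and switches on LEF1/TCF target genes. Secreted frizzled-related proteins (SFRPs), FRZB and WIF1 bind WNT ligands outside the cell and can keep them from their receptors. Dickkopf (DKK) proteins act one step later, since DKK1 and DKK2 bind LRP5 and LRP6 together with Kremen proteins, whereas DKK3 is a divergent family member whose role in WNT signaling is less settled. APCDD1 is a membrane glycoprotein that interacts with WNT and LRP proteins and dampens signaling in the cell that makes it. In the midbrain WNT1/b-catenin signaling is needed for mdDA neurons to form, and its strength has to be kept within limits for them to mature.

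The arrays gave log2 levels per probe set, on which a step of 1 is a 2-fold change, and a difference is said to pass the test at a false discovery rate below 10% over all probe sets. Only 3 of the 10 genes varied by more than 1 log2 unit over the 8 arrays. These were *Sfrp1* with a range of 2.49, *Sfrp2* with 2.18 and *Apcdd1* with 1.26, whereas the other members ranged over 0.34 to 0.71 and the median range of all probe sets was 0.76. *Sfrp1* and *Sfrp2* had their highest log2 levels in the lateral domain, and *Apcdd1* had its highest in the mdDA domain. *Sfrp5*, *Frzb*, *Dkk1*, *Dkk3* and *Wif1* lay below the median probe set on every array, and *Sfrp2*, *Sfrp4* and *Apcdd1* lay above it on every array. A level below the array median is close to the dim end of the scale, where a difference in RNA is compressed and can be missed. Levels of different genes come from different probe sets and were not set against each other.

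**Figure D1:**
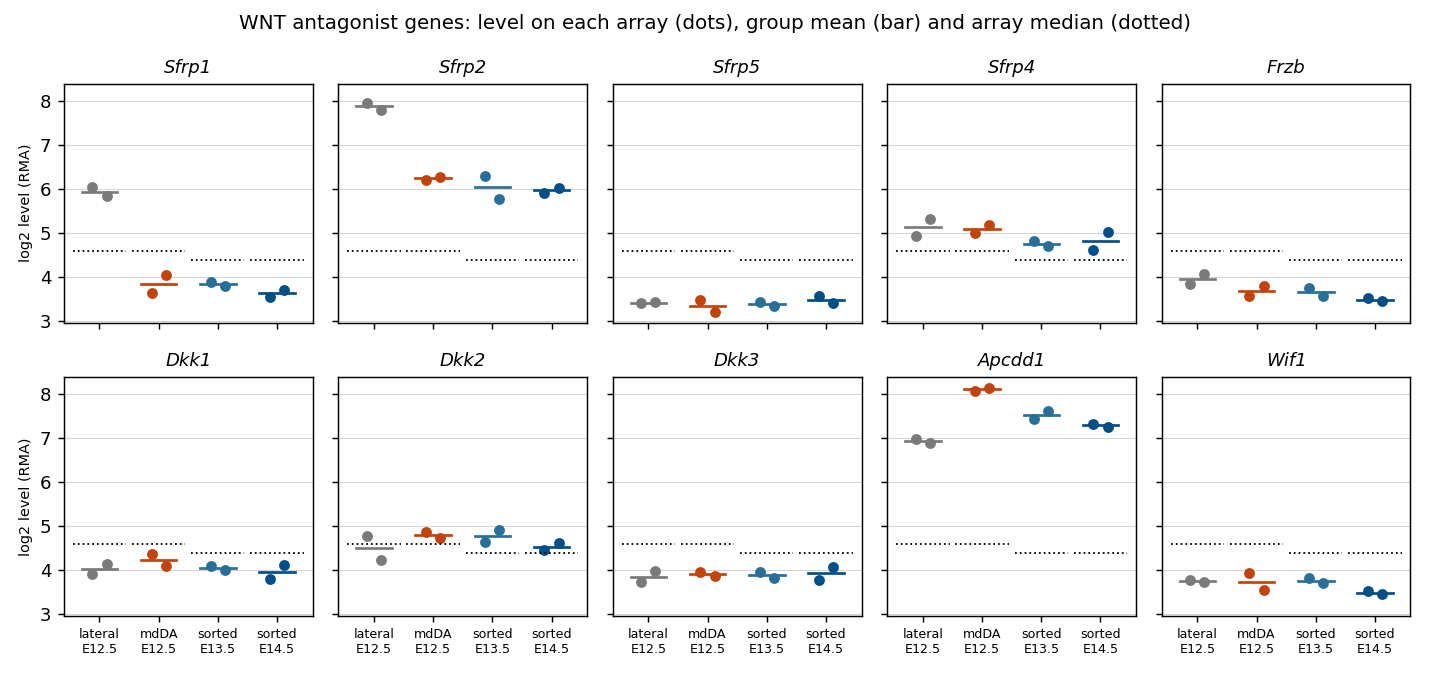
Log2 level (RMA, vertical axis) of each WNT antagonist gene on each of the 8 arrays (dots), with the mean of the 2 arrays of a group (bar) and the median of all probe sets on the arrays of that group (dotted line). *Sfrp1* and *Sfrp2* stand higher on both lateral arrays than on the other 6 arrays, *Apcdd1* is highest on both mdDA domain arrays, and 5 genes stay below the dotted line throughout.

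The labels of the samples were checked against marker genes. Of 10 mdDA genes, 9 were higher in the mdDA than in the lateral domain and all 10 were higher in the sorted neurons than in the lateral domain. The exception was *Pitx3* itself, with log2 levels of 7.44 and 7.34 in the mdDA domain and of 6.96 and 6.47 in the lateral domain (paired limma, adjusted p = 0.228). The paper lists *Pitx3* among the transcripts enriched in the mdDA domain at the same false discovery rate. The direction was thus the same here, but the call differed. Of 10 alar plate and GABAergic genes, 8 were higher in the lateral domain than in the mdDA domain. Of the same 10, 4 were higher (*Pax7*, *Gata3*, *Gad1* and *Gad2*) and 2 were lower (*Lhx1* and *Lhx5*) in sorted neurons than in the mdDA domain, also under both other scalings. *Gad2*, which encodes a GABA-synthesizing enzyme, had log2 levels of 7.95, 7.56, 7.97 and 7.83 on the sorted arrays. It had 5.29 and 5.31 in the mdDA domain and 8.45 and 8.23 in the lateral domain, so that its sorted levels were near the lateral ones. All 10 genes were lower in sorted neurons than in the lateral domain on the deposited scale and after repeated quantile normalization. After centring 9 were lower, and *Gad2* was not called (-0.30, limma adjusted p = 0.212). Erythroid genes had a mean log2 level of 8.04 to 8.19 on the dissected arrays and of 4.09 to 4.25 on the sorted ones. The median log2 value of an array was 4.57 to 4.60 for dissected tissue and 4.39 for sorted neurons, so the scale itself differed between these sets. Centring every array on its median moved the median difference of all probe sets by 0.20 for the sorted neurons against the mdDA domain and by 0.21 against the lateral domain, and the members’ changes across these sets are therefore also given on the centred scale. In bulk samples, fewer cells of a type and less RNA per cell cannot be told apart.

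The SFRP family was divided between *Sfrp1* and *Sfrp2*, which were high in the lateral domain, and genes with little variation. *Sfrp1* encodes a secreted WNT-binding protein that is typical of neural progenitors, and its log2 level (probe set 10570957) was 6.04 and 5.84 in the lateral domain and 3.65 and 4.05 in the mdDA domain. In sorted neurons it was 3.88 and 3.80 at E13.5 and 3.56 and 3.71 at E14.5. Both lateral arrays thus stood above the other 6 arrays, among which the values of E13.5 neurons lay within the range of the mdDA domain, and which all lay below their array medians. *Sfrp1* was 4.27-fold lower in the mdDA than in the lateral domain, a log2 difference of -2.09 ± 0.21 (SE, n = 2 arrays per domain, paired limma, adjusted p = 0.0540). In the sorted neurons it was 4.61-fold lower than in the lateral domain, by -2.20 ± 0.15 on the log2 scale (SE, limma over 8 arrays, adjusted p = 3.90e-04), or by -1.99 after centring. Between sorted neurons and the mdDA domain the log2 difference was -0.11 (95% interval -0.46 to 0.25, limma adjusted p = 0.679), and its sign turned to 0.088 after centring.

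*Sfrp2* belongs to the same SFRP subgroup as *Sfrp1* and *Sfrp5*, and it too had its highest levels in the lateral domain. Its log2 levels were 7.96 and 7.81 in the lateral domain, 6.22 and 6.28 in the mdDA domain, 6.30 and 5.78 in E13.5 neurons, and 5.92 and 6.02 in E14.5 neurons. The lateral arrays were again apart from the others, and the values of E13.5 neurons spanned those of the mdDA domain and of E14.5 neurons. Unlike *Sfrp1*, the gene stayed above the array median in these groups. The level in the mdDA domain was 3.12-fold lower than in the lateral domain, with a log2 difference of -1.64 ± 0.15 (SE, paired limma, adjusted p = 0.0494). Sorted neurons were 3.68-fold lower than the lateral domain, by -1.88 ± 0.16 on the log2 scale (SE, limma, adjusted p = 9.09e-04), or by -1.67 after centring. Against the mdDA domain the sorted neurons differed by -0.24 in log2 level, with a 95% interval of -0.63 to 0.15 (limma adjusted p = 0.387), or by -0.044 after centring.

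The third gene of that subgroup, *Sfrp5*, did not share the pattern and lay between 3.21 and 3.57 on all 8 arrays, with lateral values of 3.41 and 3.43. *Sfrp4*, a member of the other SFRP subgroup with *Frzb*, had log2 levels of 4.94 and 5.33 in the lateral domain and of 5.01 and 5.18 in the mdDA domain, which overlapped. Its sorted levels were 4.81 and 4.70 at E13.5 and 4.62 and 5.02 at E14.5. *Frzb*, which encodes a secreted frizzled-related protein first known from cartilage, had lateral levels of 3.85 and 4.06 and mdDA domain levels of 3.56 and 3.79. Its levels were 3.75 and 3.57 in E13.5 neurons and 3.52 and 3.46 in E14.5 neurons, all below the array medians. The log2 difference of *Frzb* between sorted neurons and lateral domain was -0.38 ± 0.13 (SE), 1.30-fold lower, and passed the test narrowly (limma adjusted p = 0.0927). That call was lost after centring (-0.17, adjusted p = 0.425), after repeated quantile normalization (-0.18, adjusted p = 0.442), with the replicate block (adjusted p = 0.132), and whenever any single array was left out (adjusted p 0.109 to 0.405).

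*Apcdd1*, the membrane-bound antagonist, was the only member that passed as higher in the mdDA than in the lateral domain. Its log2 level (probe set 10456184) was 8.09 and 8.16 there, against 6.98 and 6.89 in the lateral domain. By in situ hybridization at E12.5 the paper found *Apcdd1* in the midbrain floor plate but not in the lateral domain. On the arrays its lateral levels lay above the array median. In sorted neurons the level was 7.45 and 7.62 at E13.5 and 7.33 and 7.27 at E14.5. The 4 groups did not overlap and ran from the mdDA domain through E13.5 and E14.5 neurons down to the lateral domain, although the step from E13.5 to E14.5 did not pass the test. The gene was 2.28-fold higher in the mdDA than in the lateral domain, a log2 difference of 1.19 ± 0.15 (SE, paired limma, adjusted p = 0.0720). Sorted neurons were 1.63-fold lower than the mdDA domain, by -0.71 ± 0.11 on the log2 scale (SE, limma, adjusted p = 0.0129), or by -0.51 after centring and -0.90 after repeated quantile normalization. They were 1.39-fold higher than the lateral domain, by 0.48 ± 0.11 (SE, limma, adjusted p = 0.0248), or by 0.69 after centring and 0.32 after repeated quantile normalization.

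Taken alone, E13.5 neurons were below the mdDA domain in *Apcdd1* by -0.59 (limma adjusted p = 0.0419) and E14.5 neurons by -0.82 (adjusted p = 0.0165). Against the lateral domain, E13.5 neurons alone were higher by 0.60 (limma adjusted p = 0.0249), whereas E14.5 neurons alone differed by 0.36 and did not pass (adjusted p = 0.103). The difference between sorted neurons and lateral domain also did not pass when either lateral array was left out (adjusted p = 0.103 and 0.152).

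The DKK family and *Wif1* showed no difference that passed the test in any comparison. *Dkk1* encodes the founding secreted inhibitor of LRP5 and LRP6, and its log2 levels were 3.92 and 4.15 in the lateral domain and 4.36 and 4.09 in the mdDA domain. In sorted neurons *Dkk1* measured 4.11 and 4.00 at E13.5 and 3.81 and 4.11 at E14.5, so that all groups overlapped. *Dkk2*, which can inhibit or activate the pathway depending on the receptor context, had levels of 4.79 and 4.24 in the lateral domain and of 4.87 and 4.74 in the mdDA domain. Its sorted levels were 4.63 and 4.90 at E13.5 and 4.45 and 4.62 at E14.5, and 1 of its 8 values was below the array median. *Dkk3* was the flattest member, between 3.72 and 4.07 on all arrays. The paper's model, citing earlier work for *Dkk3*, has *Dkk3* and/or *Apcdd1* expressed in mdDA progenitors and precursors. A flat and dim signal on 1 probe set does not show that *Dkk3* was absent.

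The intervals give the differences in log2 level that the spread between technical arrays leaves possible. They do not hold the spread between embryos, and a dim signal can compress a larger difference in RNA. For the mdDA domain against the lateral domain the 95% interval of the log2 difference ran from -0.32 to 0.71 for *Dkk1*, from -0.19 to 0.78 for *Dkk2* and from -0.39 to 0.51 for *Dkk3*. *Wif1*, whose product binds WNT ligands through its WIF domain, had levels of 3.78 and 3.73 in the lateral domain, 3.93 and 3.55 in the mdDA domain, 3.82 and 3.70 in E13.5 neurons, and 3.52 and 3.46 in E14.5 neurons. Its lowest values were those of E14.5 neurons, and its values in the other groups overlapped.

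Promoter sequences are shown for the members with CTTTGA, 1 form of the LEF1/TCF core, near their start. The reporter that defined the mdDA domain is read through LEF1/TCF sites. *Sfrp2* is shown too, since it changed between the domains. The table of RefSeq promoters used here (GRCm38.p6) matched 6 of the 10 genes, namely *Sfrp2*, *Sfrp5*, *Frzb*, *Dkk1*, *Dkk2* and *Wif1*. The core was searched on both strands (CTTTGA or TCAAAG) in the 250 bases before the start, and it was found in 2 of these 6, in *Dkk1* at 2 places and in *Frzb* at 1 place. In *Dkk1* the matches begin 174 and 117 bases before the start, and in *Frzb* the match begins 95 bases before it. Only the *Dkk1* match at 117 has an A or T as that next base. The *Dkk1* window also holds CTTTGTT, which has the full form but is not in capitals. Of 32851 promoters in the table, 13.8% hold CTTTGA on either strand in this window and 1.37% hold it 2 or more times. In the lines below, each sequence runs 5′ to 3′ in the direction of the gene and ends at the base before its start. CTTTGA is in capitals on whichever strand it lies. The windows are chr3:83766071-83766320 (plus strand) for *Sfrp2*, chr2:80447397-80447646 (minus strand) for *Frzb* and chr19:30549497-30549746 (minus strand) for *Dkk1*.
Sfrp2: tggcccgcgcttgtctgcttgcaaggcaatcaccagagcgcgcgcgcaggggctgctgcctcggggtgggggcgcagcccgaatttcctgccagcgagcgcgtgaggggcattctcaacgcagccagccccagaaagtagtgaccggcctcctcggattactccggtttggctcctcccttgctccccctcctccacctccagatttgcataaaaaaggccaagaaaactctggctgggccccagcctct
Frzb: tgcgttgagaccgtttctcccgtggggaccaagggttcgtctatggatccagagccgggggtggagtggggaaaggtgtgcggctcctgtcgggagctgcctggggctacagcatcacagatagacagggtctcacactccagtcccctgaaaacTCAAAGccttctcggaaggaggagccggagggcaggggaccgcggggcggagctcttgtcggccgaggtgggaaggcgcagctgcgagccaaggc
Dkk1: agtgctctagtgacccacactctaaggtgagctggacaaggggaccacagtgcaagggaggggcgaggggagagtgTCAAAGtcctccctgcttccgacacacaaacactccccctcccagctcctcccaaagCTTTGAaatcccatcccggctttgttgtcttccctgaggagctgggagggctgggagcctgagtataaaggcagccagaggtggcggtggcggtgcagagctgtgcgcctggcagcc
A match of these letters is a description and does not show that a factor binds there.

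Counted over the list, 3 of the 10 members passed the test between the mdDA and the lateral domain at a false discovery rate below 10%, 1 higher and 2 lower, where 2.62% of all 35556 probe sets did (1.52% higher and 1.10% lower). The median log2 difference of the members was -0.024 and that of all probe sets -0.013. The values of the domains did not overlap for 4 members (*Sfrp1*, *Sfrp2*, *Frzb* and *Apcdd1*), against 43.8% of all probe sets. With any single array left out the adjusted p rose above the threshold for *Sfrp1* (0.103 to 0.129), *Sfrp2* (0.101 to 0.136) and *Apcdd1* (0.133 to 0.151), while the log2 differences stayed between -2.29 and -1.90, between -1.72 and -1.57, and between 1.14 and 1.23. At a false discovery rate below 5% the call of *Sfrp2* was left.

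Between sorted neurons and lateral domain 4 members passed, *Apcdd1* higher and *Sfrp1*, *Sfrp2* and *Frzb* lower, where 25.9% of all probe sets passed (11.4% higher, and 5141 of 35556 lower). The same 4 did not overlap, against 42.3% of all probe sets. The median difference was -0.078 for the members and -0.089 for all probe sets. Between sorted neurons and the mdDA domain *Apcdd1* was the single member that passed, where 18.4% of probe sets did (8.53% higher and 9.84% lower), and it was also the single member without overlap, against 37.3% of probe sets. These comparisons share arrays with each other and with the comparison of the domains.

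**Figure D2:**
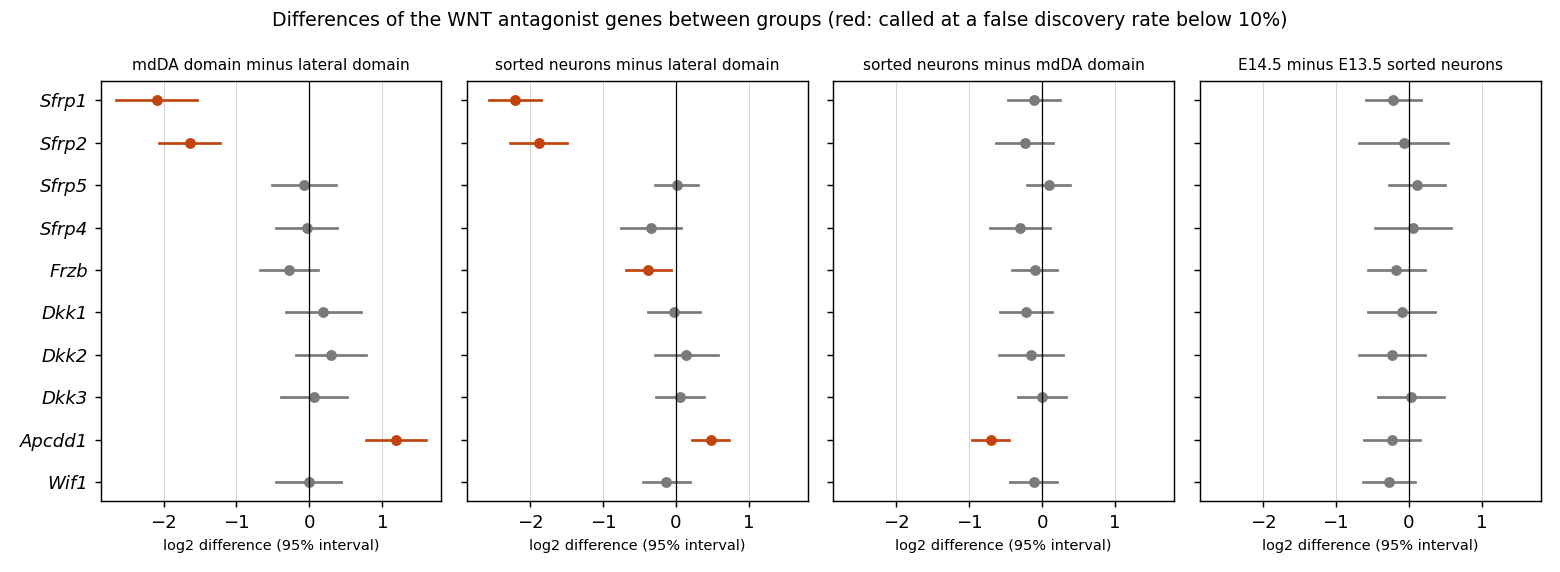
Log2 difference (horizontal axis) of each WNT antagonist gene in the 4 comparisons, with its 95% interval as a line and genes past a false discovery rate below 10% in red. *Sfrp1* and *Sfrp2* lie near -2 against the lateral domain in both left panels, *Apcdd1* lies above 0 there and below 0 for sorted neurons against the mdDA domain, and no gene is red for E14.5 against E13.5.

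From E13.5 to E14.5 none of the 10 members passed the test in the sorted neurons, and 0 of 35556 probe sets did (0%). At an unadjusted p under 0.05 there were 2156 probe sets and 0 members. The members with the most negative log2 differences were *Wif1* with -0.27 (95% interval -0.63 to 0.090), *Apcdd1* with -0.23 (-0.62 to 0.15) and *Dkk2* with -0.23, and the lowest limma adjusted p of any probe set was 0.605. The 2 stages did not overlap for 5 members (*Sfrp1*, *Frzb*, *Dkk2*, *Apcdd1* and *Wif1*), against 36.0% of all probe sets in either direction. All 5 were lower at E14.5, and the share of all probe sets that were lower without overlap was not counted.

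Some markers of neural progenitors were also lower in the mdDA than in the lateral domain, as *Sfrp1* and *Sfrp2* were. The mean log2 level of 12 progenitor genes was 7.67 and 7.68 in the lateral domain and 6.77 and 6.81 in the mdDA domain, and it was 5.52 to 5.87 on the sorted arrays. Of these genes 5 were lower in the mdDA than in the lateral domain (*Sox2*, *Sox9*, *Notch1*, *Mki67* and *Top2a*) and 7 did not pass, while 10 were lower in sorted neurons than in the mdDA domain (8 after centring), a step across which *Sfrp1* and *Sfrp2* did not pass. The part of progenitor content in the levels of *Sfrp1* and *Sfrp2* was not tested.

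Markers of vessels did not pass between the domains, and some were lower in sorted neurons than in the mdDA domain, as *Apcdd1* was. The mean log2 level of 8 endothelial genes was 4.39 and 4.49 in the lateral domain and 4.59 and 4.47 in the mdDA domain, with 0 of 8 past the test. It was 3.76 to 3.87 on the sorted arrays, and 5 of 8 were lower there than in the mdDA domain on the deposited scale (*Pecam1*, *Cdh5*, *Tek*, *Flt1* and *Emcn*), of which *Cdh5* and *Emcn* also passed after centring and after repeated quantile normalization. Pericyte genes were lower in 3 of 6 cases and the 4 measured erythroid genes in all 4. Against the lateral domain *Apcdd1* was higher in sorted neurons, whereas 4 of 8 endothelial, 3 of 6 pericyte and 4 of 4 erythroid genes were lower. These counts were 3, 2 and 4 after centring. The mean log2 level of 10 meningeal and mesenchymal genes was 3.86 to 4.10 on all arrays, and 0 of 10 passed in any comparison. On the deposited scale 0 of 7 microglial genes passed, and of 6 choroid plexus and roof plate genes 1 was lower in sorted neurons than in the mdDA domain and 1 was higher than in the lateral domain. The part of vessel and blood cells in the level of *Apcdd1* was not tested.

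Of the 4 co-receptor genes through which DKK proteins act, 0 passed between the domains. *Lrp5* had log2 levels of 5.76 and 5.77 in the lateral domain, 5.57 and 5.38 in the mdDA domain, 4.53 and 5.06 in E13.5 neurons, and 4.75 and 4.60 in E14.5 neurons. It was lower in sorted neurons than in the mdDA domain by -0.74 (limma adjusted p = 0.0398) and than in the lateral domain by -1.03 (adjusted p = 0.00864). *Lrp6* was lower in sorted neurons than in the lateral domain by -0.50 (limma adjusted p = 0.0684), with values of 6.67 and 6.69 against 5.96 to 6.41, but this call was lost after centring (-0.29, adjusted p = 0.227). *Kremen1* lay between 4.91 and 5.42 and *Kremen2* between 4.24 and 4.94 on all arrays, and neither passed in any comparison.

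Of 17 other extracellular and membrane WNT inhibitors that were measured, 1 passed between the domains. This was *Shisa3*, whose family holds Frizzled receptors back inside the cell, with log2 levels of 7.52 and 7.40 in the lateral domain and of 6.01 and 5.90 in the mdDA domain, a difference of -1.50 (paired limma, adjusted p = 0.0523). Its sorted levels were 6.01 and 6.10 at E13.5 and 5.80 and 5.92 at E14.5, and both lateral arrays stood above the other 6, as for *Sfrp1* and *Sfrp2*. *Draxin*, a secreted axon guidance protein that also inhibits WNT signaling through LRP6, was higher in sorted neurons than in the mdDA domain by 0.97 (limma adjusted p = 0.0111). *Draxin* levels were 8.35 and 8.51 at E13.5 and 7.51 and 7.89 at E14.5, above the 7.07 and 7.13 of the mdDA domain and the 7.31 and 7.38 of the lateral domain. *Tpbg*, which encodes a membrane inhibitor of LRP6, was lower in sorted neurons than in the mdDA domain by -0.70 (limma adjusted p = 0.0519), and *Igfbp4*, whose product can also block LRP6, was lower in sorted neurons than in the lateral domain by -0.70 (adjusted p = 0.0579). The calls of *Tpbg* (-0.50, adjusted p = 0.120) and *Igfbp4* (-0.49, adjusted p = 0.152) were lost after centring, whereas those of *Draxin* and *Shisa3* stayed under both other scalings.

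**Figure D3:**
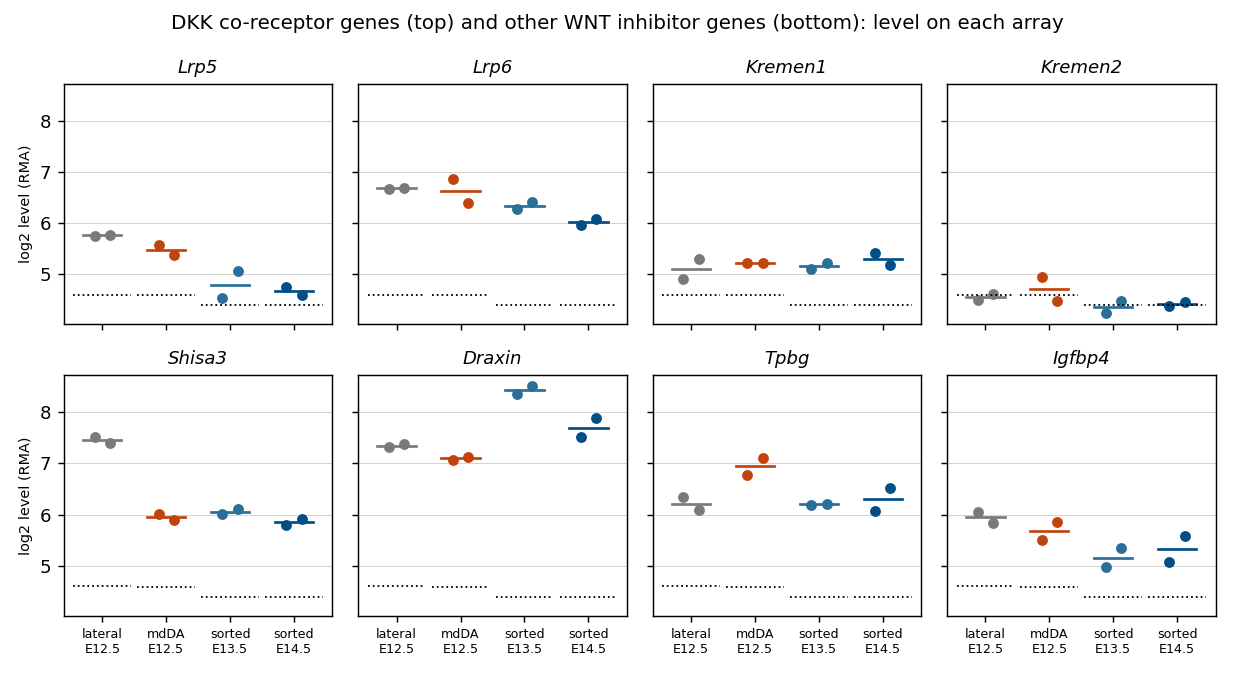
Log2 level (RMA, vertical axis) on each array (dots), group mean (bar) and array median (dotted) of the DKK co-receptor genes in the top row and of 4 other WNT inhibitor genes in the bottom row. *Shisa3* is highest on both lateral arrays, *Draxin* is highest in E13.5 neurons, and *Lrp5* is lower on all 4 sorted arrays than on the 4 dissected ones.

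Among the ligands and receptors on which the antagonists act, 4 genes passed between the domains, where 2.62% of all probe sets did. Of 19 WNT ligands *Wnt5a* passed, higher in the mdDA domain by 2.14 on the log2 scale. Of 16 receptors and co-receptors 3 were lower in the mdDA than in the lateral domain, namely *Fzd1* (-1.73), *Fzd2* (-1.31) and *Fzd8* (-1.03), the last of which did not pass after repeated quantile normalization (adjusted p = 0.104). Of 10 cell surface agonists *Rspo2* was higher in the mdDA domain (1.23) and its receptor gene *Lgr4* was lower (-1.18). Among 14 measured b-catenin targets and feedback regulators *Msx1* was higher (1.39) and *Ccnd1* (-2.45) and *Lef1* (-2.33) were lower in the mdDA domain.

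Calls of pathway genes in the sorted neurons depended more on the scaling. Against the mdDA domain, 0 of 19 ligands passed on the deposited scale, 3 were higher after centring (*Wnt3*, *Wnt5a* and *Wnt10b*) and 2 after repeated quantile normalization (*Wnt3* and *Wnt10b*). Of all 35556 probe sets, 3032 were higher on the deposited scale, 5580 after centring and 2594 after repeated quantile normalization. Of 16 receptors and co-receptors *Fzd8* was higher (1.10) and *Fzd2* (-0.78), *Lrp5* (-0.74) and *Fzd6* (-0.41) were lower, of which *Fzd8* and *Lrp5* passed under each scaling. Among the agonists *Rspo2* (-0.86) and *Wls* (-0.74), which carries WNT proteins to the cell surface, were lower and *Lgr4* (0.72) was higher under each scaling. The targets *Msx1* (-1.02), *Myc* (-0.99) and *Lef1* (-0.70) were lower under each scaling too.

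Against the lateral domain, sorted neurons were higher in *Wnt5a* (2.84) and lower in *Wnt2b* (-0.64), *Wnt7b* (-0.52) and *Wnt8b* (-0.41) among the ligands. After centring 4 of 19 ligands were higher and 0 lower. Of all 35556 probe sets, 4057 were higher on the deposited scale and 6705 after centring, so a higher call was more common on the centred scale. Of the 16 receptors and co-receptors 7 were lower, 5 after centring and 8 after repeated quantile normalization. Of all probe sets 5141, 2732 and 4150 were lower on these scales. The most negative on the deposited scale were *Fzd2* (-2.09), *Fzd1* (-2.09), *Lrp5* (-1.03) and *Fzd9* (-0.88). *Wls* was lower (-0.70) under each scaling, and *Porcn*, the enzyme that attaches a lipid to WNT proteins, was higher (0.55) but did not pass after repeated quantile normalization (adjusted p = 0.175). *Ccnd1* (-3.03) and *Lef1* (-3.03) were lower under each scaling, and *Msx1* was higher after centring (0.58, adjusted p = 0.0415) but not called on the deposited scale.

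The genes most like each called member were found by Pearson's r over the 8 arrays, among 4860 genes that ranged over at least 1 log2 unit (4861 for *Frzb*). The arrays fall into 4 groups of 2, so that r reflects the order of the groups, and it is given as a description. For *Sfrp1* these were *Crabp2* (0.990), *Pantr1* (0.990) and *Atad2* (0.989), and 76 genes had an r above 0.95. For *Sfrp2* they were *Atad2* (0.986), *Spsb4* (0.986) and *Cdca2* (0.984), with 100 genes above 0.95. *Sfrp1* and *Sfrp2* correlated with each other at 0.982. *Apcdd1* had fewer genes alike, 13 above 0.95, led by *Ntrk3* (0.983), *Unc5c* (0.977) and *Ube2ql1* (0.974). *Ntrk3* encodes a neurotrophin receptor and *Unc5c* a netrin receptor, and like *Apcdd1* they had their highest group mean in the mdDA domain (7.47 and 5.86 on the log2 scale) and intermediate means in sorted neurons. For *Frzb* 1 gene exceeded 0.95, *A430005L14Rik* (0.958), followed by *Ift74* (0.946) and *Ajuba* (0.945).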

How the data were processed

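RNA of 4 sample groups was measured on Affymetrix Mouse Gene arrays, 2 per group, and the precision is limited by that number. The authors deposited gene-level log2 values made with RMA in Affymetrix Expression Console 1.2, which were used without a filter or another normalization. The genome build was not given in the sources used here. Names of probe sets came from the platform annotation (21789 of 35556 with 1 symbol, 1621 with several and 12146 with none), and a gene with several probe sets takes the one with the highest mean over 8 arrays. Differences were tested with limma 3.58.1 in R 4.3.3 on all probe sets, with Benjamini-Hochberg adjustment. The domains were compared on their 4 arrays with the replicate number as a block, after the paired test that the paper names without saying what pairs the arrays. Both sorted groups together (their mean) were set against each domain over 8 arrays, and E14.5 against E13.5 over 4 arrays, without a block. Genes named are the 10 members, the 3 genes most like each called member, up to 4 called genes of each pathway list and up to 3 of each marker list. *Kremen1*, *Kremen2*, *Wnt3*, *Wnt10b* and further progenitor, endothelial, alar plate and GABAergic genes were named after their values were seen. The members and lists were chosen with earlier results of these data known. The tests were checked on simulated data. Alternatives were other blocks, arrays, scalings, filters, priors, thresholds and features, and leaving out each array. Python 3.11.15, pandas 2.3.3 and matplotlib 3.10.9 were used for sequences and plots.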

Additional observations from a re-analysis of the deposited data

How the results depend on the processing

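Each group has 2 technical arrays, so depth of replication limits every call, and dim members such as *Sfrp5*, *Frzb*, *Dkk1*, *Dkk3* and *Wif1* could differ by amounts that these arrays compress. Between the domains 3 members were called, 1 at a false discovery rate below 5% and 0 (range 0 to 0) with any array left out, in fits of 3 arrays without the block in which a lone array is assumed to vary like the others. In these fits 15 to 170 probe sets of the whole series were called, against 931. The other alternatives gave 3 members, with 801 probe sets after repeated quantile normalization, 1646 with the trend and robust prior, and 2502 over single symbols. Over single symbols the log2 differences were unchanged, but the limma adjusted p was 4.1e-06 for *Sfrp1*, 1.2e-05 for *Sfrp2* and 2.0e-04 for *Apcdd1*. With all probe sets it was 0.0540, 0.0494 and 0.0720, so the adjusted p depended strongly on which probe sets entered. The count of sorted neurons against the mdDA domain was 1 throughout, also with any array left out (1 to 1), and the count of E14.5 against E13.5 was 0 throughout (0 to 0), also with all 8 arrays in the fit, where 20 probe sets passed. With any array left out, 2037 to 6505 probe sets passed for sorted neurons against the mdDA domain and 4695 to 9162 against the lateral domain. Sorted neurons against the lateral domain gave 4 members, 2 to 3 with any array left out, 2 where either lateral array was left out, and otherwise 3 or 4, with *Frzb* lost where 3 were called except for E14.5 neurons alone, where *Apcdd1* was lost. E13.5 or E14.5 neurons alone were chosen as alternatives after seeing the data.

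Same-numbered arrays did not deviate together (correlations of deviations from -0.037 to 0.013), so the replicate number pairs nothing by this check. Without the replicate block the 3 calls between the domains stayed (*Sfrp1* -2.09, *Sfrp2* -1.64 and *Apcdd1* 1.19, limma adjusted p = 0.0209, 0.0177 and 0.0286), with 1434 probe sets called in all. With the block, 1 member was called between sorted neurons and mdDA domain, 3 against the lateral domain, and 0 between the stages.

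Only uncalled members changed sign, and the cause beyond the scaling itself was not tested. Between sorted neurons and mdDA domain, repeated quantile normalization gave *Sfrp1* 0.088, *Frzb* 0.089, *Dkk2* 0.021, *Dkk3* 0.20 and *Wif1* 0.075, and centring gave 0.088, 0.094, 0.043, 0.19 and 0.078. Against the lateral domain, quantile normalization gave *Dkk1* 0.19 and *Wif1* 0.067, and centring gave 0.18 and 0.080. Between the domains centring gave *Wif1* 0.0020. Stages alone gave, against the mdDA domain, *Wif1* 0.017 at E13.5 and *Dkk3* 0.013 at E14.5, and, against the lateral domain at E13.5, *Sfrp5* -0.040, *Dkk1* 0.022 and *Wif1* 0.0055. Centring also moved the share of higher calls among all probe sets from 46.4% to 75.8% against the mdDA domain and from 44.1% to 71.1% against the lateral domain. Leaving out single arrays gave ranges on both sides of 0, between the domains, for *Sfrp4* (-0.23 to 0.16), *Sfrp5* (-0.21 to 0.069), *Dkk3* (-0.071 to 0.19) and *Wif1* (-0.20 to 0.18). For sorted neurons against the mdDA domain these were *Sfrp1* (-0.31 to 0.090), *Sfrp5* (-0.054 to 0.22), *Frzb* (-0.22 to 0.010), *Dkk3* (-0.073 to 0.068) and *Wif1* (-0.31 to 0.071). For E14.5 against E13.5 they were *Sfrp2* (-0.33 to 0.19), *Sfrp4* (-0.14 to 0.26), *Dkk1* (-0.25 to 0.058) and *Dkk3* (-0.11 to 0.17), and for sorted neurons against the lateral domain *Sfrp5* (-0.025 to 0.055), *Dkk1* (-0.14 to 0.091), *Dkk2* (-0.13 to 0.42) and *Dkk3* (-0.074 to 0.19). The mean of all probe sets of a gene was not run, since each member has 1 probe set.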
